A study of Mus musculus with 8 samples.

Results

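Ccn1 and Ccn2 (formerly Cyr61 and Ctgf) and 8 further genes of the YAP-TEAD pathway, Ankrd1, Amotl2, Ajuba, Axl, Yap1, Tead1, Tead2 and Lats2, were followed in menin-null and wild-type mouse cells. The 10 genes were chosen with earlier results of these data known. Their probe sets (groups of short probes that read 1 transcript) were taken by symbol from the array's annotation. This gave 22 among the 34945 probe sets with 1 gene symbol. At gene level they were 10 of 18193 genes tested. RNA was measured in embryonic stem cells (mESCs) and in pancreatic islet-like endocrine cells (PILECs) made from them in culture, to ask what loss of menin changes before and after differentiation. The groups were menin-null PILECs, wild-type PILECs, menin-null mESCs and wild-type mESCs, with 2 arrays from 2 cultures in each and 8 arrays in all. Menin-null cells were of line 3.2N, in which Men1 was inactivated, and wild-type cells were of line TC-1 (TC1 in the labels), both of 129S6/SvEvTac background. Each genotype was 1 line, so genotype and line cannot be told apart. The mESCs had been grown on irradiated embryonic fibroblasts and then freed of these feeders, and PILECs were made through embryoid bodies, serum-free selection, and growth with FGF and then nicotinamide.

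YAP, the product of Yap1, is a transcriptional co-activator that binds no DNA itself and acts through the TEAD proteins, of which Tead1 and Tead2 encode a pair. The kinases of the Hippo cascade, LATS1 and LATS2 last among them, phosphorylate YAP and so keep it out of the nucleus, and cell density, stretch and attachment to matrix set the activity of the cascade. Ccn1 and Ccn2 encode secreted proteins of the matrix around cells and are, with Ankrd1, Amotl2, Ajuba and Axl, widely used as readouts of YAP-TEAD activity, although SRF and TGF-beta signalling also act on several of them. RNA levels of the pathway's own components say nothing of where YAP is in the cell, which was not measured here.

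TEAD proteins bind the motif GGAATG, read as CATTCC on the other strand. Promoters from RefSeq (GRCm38.p6, 250 bases before to 50 after the start of the gene) were listed for 8 of the 10 genes, in 9 windows, and 7 genes held the motif on either strand in at least 1 window. Of all 32851 promoters of this length, 14.7% (4817) held it. The target genes are known for TEAD binding, so that count describes the sequences and is no finding. 4 promoters are shown, with the motif in capitals: those of Ccn1 (chr3:145649936-145650235, minus strand) and Ajuba (chr14:54577612-54577911, minus strand), the genes that fell in menin-null mESCs, and those of Amotl2 (chr9:102717554-102717853, plus strand) and Ankrd1 (chr19:36119795-36120094, minus strand), which carry the same letters and did not pass the test there.
Ccn1: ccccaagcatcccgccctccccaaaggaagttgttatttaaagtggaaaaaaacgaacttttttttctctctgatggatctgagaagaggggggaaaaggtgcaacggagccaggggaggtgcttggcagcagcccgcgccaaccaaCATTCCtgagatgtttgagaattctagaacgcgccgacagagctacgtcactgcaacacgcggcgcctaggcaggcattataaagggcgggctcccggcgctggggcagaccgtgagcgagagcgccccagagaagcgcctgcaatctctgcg
Ajuba: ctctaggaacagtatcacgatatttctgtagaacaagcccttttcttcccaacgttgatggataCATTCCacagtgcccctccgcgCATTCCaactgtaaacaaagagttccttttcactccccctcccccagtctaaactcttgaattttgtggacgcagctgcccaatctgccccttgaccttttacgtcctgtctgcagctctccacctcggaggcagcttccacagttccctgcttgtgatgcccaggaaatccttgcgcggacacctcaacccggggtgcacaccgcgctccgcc
Amotl2: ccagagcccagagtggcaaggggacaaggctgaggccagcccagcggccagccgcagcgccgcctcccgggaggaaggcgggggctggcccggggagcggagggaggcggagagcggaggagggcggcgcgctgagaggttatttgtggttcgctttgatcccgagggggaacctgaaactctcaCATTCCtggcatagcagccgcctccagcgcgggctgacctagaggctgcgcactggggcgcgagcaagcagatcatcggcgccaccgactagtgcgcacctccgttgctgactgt
Ankrd1: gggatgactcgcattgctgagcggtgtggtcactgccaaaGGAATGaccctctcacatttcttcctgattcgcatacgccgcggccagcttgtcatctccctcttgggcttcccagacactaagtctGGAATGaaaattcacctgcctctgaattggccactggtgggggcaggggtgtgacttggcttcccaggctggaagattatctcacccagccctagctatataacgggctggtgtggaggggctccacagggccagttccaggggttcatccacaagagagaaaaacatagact
The motif began 103 bases before the start of Ccn1, 186 and 164 before that of Ajuba, 65 before that of Amotl2 and 210 and 123 before that of Ankrd1. It began 233 bases before the start of Axl, 141 before that of Yap1 and 4 after the start in 1 of the 2 Lats2 windows. The Tead2 window did not hold these letters. Ccn2 and Tead1 had no entry in the promoter table.

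All values below are the deposited log2 signals of single arrays, and differences are on that log2 scale with their standard error (SE) from limma fitted to all 18193 genes. A gene is said to rise or fall where its Benjamini-Hochberg adjusted p over all of them was under 0.05. Values under 7 are called dim. That limit is arbitrary, since background was not measured. Across genes, which are not replicates, the arrays of a group correlated at 0.993 to 0.998, and the pair of menin-null mESC arrays differed most (SD of the difference 0.283, against 0.159 to 0.212 in the other groups). Men1 was lower in every menin-null array, at 7.77 and 7.82 in menin-null mESCs against 9.90 and 9.97 in wild-type mESCs, and at 7.95 and 8.02 in menin-null PILECs against 10.06 and 9.92 in wild-type PILECs. Of 8 stem cell markers, all were at 7 or more in every mESC array. Of 9 islet markers measured, 4 reached 7 in each menin-null PILEC array and 5 in each wild-type PILEC array, with Ins2 at a mean of 7.37 in menin-null PILECs and 7.23 in wild-type PILECs, and Gcg, Iapp, Pax4 and Pdx1 under 7 in both. Of the 14 fibroblast markers measured, 2 to 3 reached 7 in the mESC arrays, 13 in each menin-null PILEC array and 12 in each wild-type PILEC array. In such bulk samples fewer cells of a type and less RNA per cell cannot be told apart.

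**Figure D1:**
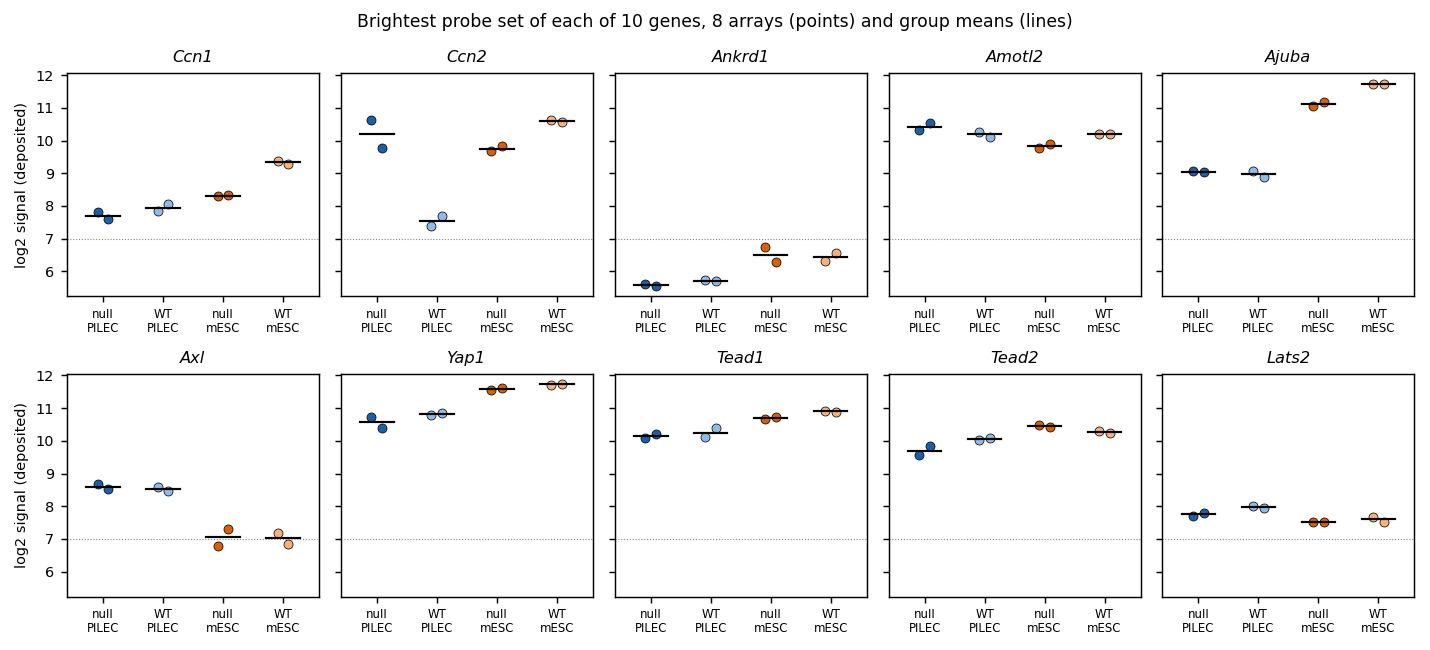
Deposited log2 signal (vertical axis) of the brightest probe set of each of the 10 genes in the 4 groups (horizontal axis, null for menin-null and WT for wild-type). Points are single arrays, black lines are means of 2 arrays and the dotted line marks 7. Ccn2 lies between 9.67 and 10.64 in 3 groups and at 7.40 and 7.70 in wild-type PILECs, while Ankrd1 stays under 7 on every array.

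Ccn2, whose protein promotes matrix production and is a classical YAP-TEAD target, was higher in menin-null PILECs. Its log2 signal was 10.64 and 9.77 in menin-null PILECs, against 7.40 and 7.70 in wild-type PILECs. Both menin-null arrays thus lay far above both wild-type arrays, although they differed from each other by more than any other pair did for this gene. The means were 10.20 ± 0.61 in menin-null PILECs and 7.55 ± 0.21 in wild-type PILECs (SD, n = 2 each). The difference was 2.66 (SE 0.247, 95% interval 2.08 to 3.23, 6.30-fold, adjusted p = 0.00238), the eighth largest in size of the 18193 genes.

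In mESCs Ccn2 ran the other way. It was at 9.67 and 9.83 in menin-null mESCs, against 10.63 and 10.57 in wild-type mESCs, and the groups did not overlap. The difference of -0.85 (SE 0.247, 95% interval -1.42 to -0.27) had an unadjusted p of 0.00944 and did not pass over all genes (adjusted p = 0.117). It passed without either menin-null PILEC array (adjusted p = 0.0277), since these arrays enter the shared estimate of the spread. The menin-null effect in PILECs exceeded that in mESCs by 3.50 (SE 0.349, 95% interval 2.69 to 4.32, adjusted p = 0.00527), and no other of the 18193 genes had an interaction of this size.

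With differentiation Ccn2 fell in the wild-type line and was not called in the menin-null line. It fell by 3.05 in wild-type PILECs relative to wild-type mESCs (SE 0.247, 8.27-fold, adjusted p = 1.12e-05). Menin-null PILECs differed from menin-null mESCs by 0.46 (95% interval -0.12 to 1.03, adjusted p = 0.140), and by 0.89 without menin-null PILEC replicate 2 (adjusted p = 0.00213). In order of level, wild-type mESCs came first, then menin-null PILECs, menin-null mESCs and wild-type PILECs. The menin-null PILEC arrays spanned the range of wild-type mESCs and overlapped menin-null mESCs, and wild-type PILECs stood apart from all. These comparisons share arrays with those of genotype and are not independent of them. Ccn2 had 1 probe set on the array, so no second one bears on its values.

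Ccn1, the other CCN gene and like Ccn2 a matrix-associated ligand of integrins, was lower in menin-null mESCs. Its brightest probe set was at 8.29 and 8.34 in menin-null mESCs, against 9.38 and 9.29 in wild-type mESCs. Replicates lay close together and the groups were far apart. Means were 8.32 ± 0.03 in menin-null mESCs and 9.34 ± 0.06 in wild-type mESCs (SD, n = 2 each), a difference of -1.02 (SE 0.111, 2.03-fold, adjusted p = 0.00567). The call was lost without wild-type mESC replicate 1 (adjusted p = 0.0655) and with only the mESC arrays in the fit (adjusted p = 0.0776), at a difference of nearly the same size.

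In PILECs Ccn1 was at 7.82 and 7.59 in menin-null cells, against 7.85 and 8.06 in wild-type cells. The menin-null arrays were lower, by a margin that did not pass (-0.25, 95% interval -0.51 to 0.010, adjusted p = 0.232). The effects in the 2 cell types differed by 0.77 (SE 0.158, adjusted p = 0.0461), a call lost without any 1 of the 8 arrays (adjusted p 0.0535 to 0.181). Ccn1 fell by 0.62 with differentiation in menin-null cells (adjusted p = 0.00138) and fell by 1.39 in wild-type cells (adjusted p = 1.06e-05). The 2 CCN genes thus both had lower means in menin-null mESCs, and opposite signs in PILECs.

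The 4 probe sets of Ccn1 did not agree. The second brightest, 1438133_a_at, was at 6.69 and 6.67 in menin-null mESCs and at 7.66 and 7.95 in wild-type mESCs, a difference of -1.12 (adjusted p = 0.00764 over all probe sets). The remaining ones were under 7 in every group and did not pass, with differences of -0.36 for 1442340_x_at and 0.0085 for 1457823_at. The array maker's suffix x marks probes that may also bind other transcripts and the suffix a marks probes shared by several transcripts of 1 gene. Of the 4 probe sets, 1457823_at has neither suffix, and with it alone the fall of Ccn1 in menin-null mESCs was not seen (adjusted p = 0.988).

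**Figure D2:**
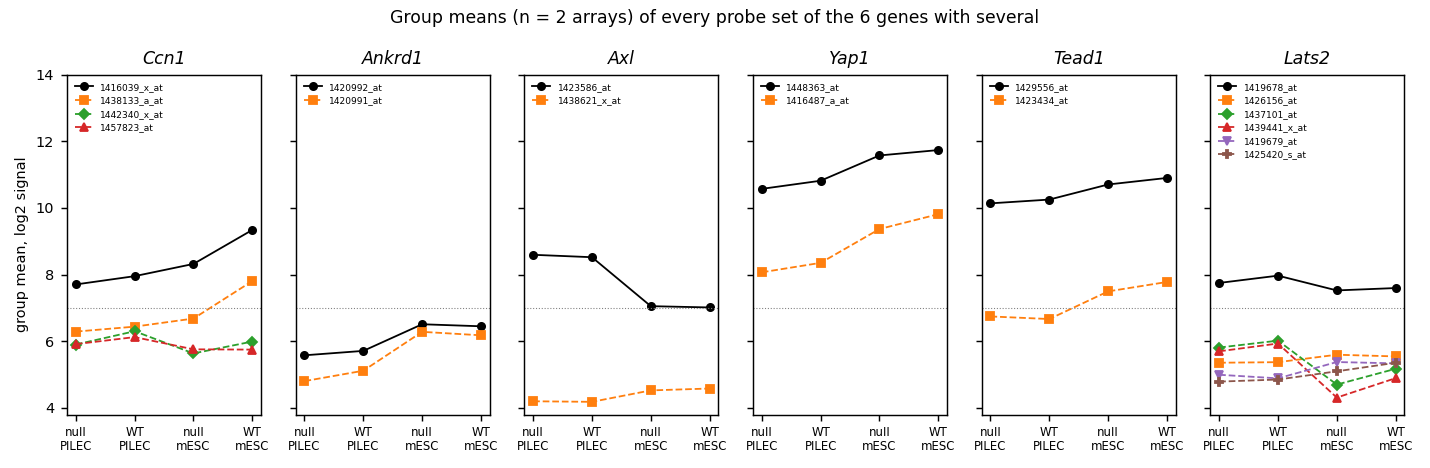
Mean log2 signal of 2 arrays (vertical axis) for every probe set of the 6 genes with more than 1, in the 4 groups (horizontal axis). Solid black lines with circles are the brightest probe set, dashed coloured lines the others, and the dotted line marks 7. Both Ccn1 probe sets that reach 7 peak in wild-type mESCs, and the 6 Lats2 probe sets run in different directions between cell types.

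The remaining target genes showed smaller differences. Ajuba encodes a LIM protein that binds and restrains LATS kinases. It fell in menin-null mESCs, at 11.05 and 11.19 in menin-null arrays against 11.74 on both wild-type arrays, a difference of -0.62 (SE 0.0950, 1.54-fold, adjusted p = 0.0175). The adjusted p was 0.0591 without menin-null mESC replicate 1, 0.136 without wild-type mESC replicate 1 and 0.122 without wild-type mESC replicate 2, while the difference stayed between -0.55 and -0.62. In PILECs the groups overlapped, with 9.06 and 9.02 in menin-null cells and 9.06 and 8.88 in wild-type cells (0.07, adjusted p = 0.709).

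The effects on Ajuba differed between the cell types by 0.70 (SE 0.134, adjusted p = 0.0402), a call that held without menin-null mESC replicate 2 and was lost without any 1 of the other 7 arrays (adjusted p 0.0629 to 0.159). With differentiation Ajuba had the lowest adjusted p of the 10 genes in both lines. It fell by 2.08 in menin-null cells (4.22-fold, adjusted p = 4.15e-07) and fell by 2.77 in wild-type cells (6.84-fold, adjusted p = 1.31e-07).

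Amotl2 encodes an angiomotin-like protein that binds YAP at cell junctions. It was at 9.78 and 9.89 in menin-null mESCs, against 10.21 and 10.19 in wild-type mESCs, with no overlap (-0.37, SE 0.106, unadjusted p = 0.00913, adjusted p = 0.116). In PILECs it was at 10.31 and 10.54 in menin-null cells and at 10.26 and 10.11 in wild-type cells (0.24, adjusted p = 0.226). The signs were those of Ccn2, and the effects in the 2 cell types differed by 0.60 (SE 0.150, adjusted p = 0.0811). With differentiation Amotl2 rose by 0.59 in menin-null cells (adjusted p = 0.00129) and differed by -0.01 in wild-type cells (adjusted p = 0.923).

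Ankrd1 and Axl gave no menin-null difference that passed. Ankrd1, a nuclear ankyrin-repeat protein of muscle and a strong YAP-TEAD target elsewhere, was dim on all 8 arrays. It was at 5.61 and 5.55 in menin-null PILECs against 5.73 and 5.69 in wild-type PILECs, and at 6.74 and 6.28 in menin-null mESCs against 6.32 and 6.57 in wild-type mESCs. Neither difference passed (-0.13 in PILECs, adjusted p = 0.668, and 0.06 in mESCs, adjusted p = 0.881), and the other probe set was also under 7 throughout. At such levels signal and background cannot be separated here, so the fall with differentiation by 0.93 in menin-null cells (adjusted p = 0.000808) and 0.74 in wild-type cells (adjusted p = 0.00308) is a change in signal near the dim end of the array.

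Axl, a receptor tyrosine kinase for Gas6, rose with differentiation in both lines on the brighter of its 2 probe sets. Its signal was 8.67 and 8.51 in menin-null PILECs and 8.59 and 8.45 in wild-type PILECs. It was 6.79 and 7.31 in menin-null mESCs and 7.18 and 6.85 in wild-type mESCs. PILECs of either line were thus above mESCs of either line, while the 2 lines overlapped within each cell type. The rise was 1.54 in menin-null cells (2.91-fold, adjusted p = 9.96e-05) and 1.51 in wild-type cells (2.84-fold, adjusted p = 0.000118). The other probe set, 1438621_x_at, was under 7 in every group and differed by -0.33 in menin-null cells (adjusted p = 0.206) and -0.40 in wild-type cells (adjusted p = 0.133). Over the mean of both the rise was 0.61 in menin-null cells (adjusted p = 0.0181) and 0.55 in wild-type cells (adjusted p = 0.0276). The interval of the menin-null difference was -0.34 to 0.49 in PILECs and -0.38 to 0.46 in mESCs.

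Yap1 and Tead1 changed with differentiation in both lines, and Tead2 passed in menin-null cells only. Most genes changed so, with 65.0% of all genes called in menin-null cells and 63.1% in wild-type cells. Yap1 was at 10.74 and 10.41 in menin-null PILECs, against 10.78 and 10.84 in wild-type PILECs, and at 11.54 and 11.60 in menin-null mESCs, against 11.72 and 11.75 in wild-type mESCs. The menin-null arrays were the lower ones in both cell types, by margins that did not pass (-0.24 in PILECs, 95% interval -0.51 to 0.020, adjusted p = 0.249, and -0.16 in mESCs, 95% interval -0.43 to 0.10, adjusted p = 0.508). With differentiation Yap1 fell by 1.002 in menin-null cells (adjusted p = 8.35e-05) and fell by 0.92 in wild-type cells (adjusted p = 0.000147). Its other probe set, 1416487_a_at, differed with differentiation by -1.30 in menin-null cells and by -1.46 in wild-type cells. The menin-null difference on that probe set was larger in mESCs, at -0.44 (unadjusted p = 0.0068, adjusted p = 0.122 over all probe sets). In PILECs it was -0.28 (unadjusted p = 0.0497, adjusted p = 0.257), and neither passed.

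Tead1 was at 10.07 and 10.20 in menin-null PILECs and at 10.11 and 10.39 in wild-type PILECs, where the lines overlapped. In mESCs it was at 10.67 and 10.73 in menin-null cells, against 10.90 and 10.89 in wild-type cells, without overlap. Neither difference passed (-0.11 in PILECs, adjusted p = 0.594, and -0.20 in mESCs, adjusted p = 0.393). It fell by 0.57 with differentiation in menin-null cells (adjusted p = 0.00192) and fell by 0.65 in wild-type cells (adjusted p = 0.000897).

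Tead2 stood apart from Tead1. It was at 10.48 and 10.43 in menin-null mESCs, against 10.29 and 10.25 in wild-type mESCs, and so was the only 1 of the 10 genes with both menin-null mESC arrays above both wild-type arrays (0.18, adjusted p = 0.421). In PILECs it was at 9.56 and 9.84 in menin-null cells, against 10.02 and 10.09 in wild-type cells, and the menin-null arrays were the lower ones (-0.36, SE 0.105, unadjusted p = 0.00972, adjusted p = 0.0894). The difference between these effects was -0.54 (adjusted p = 0.107). Tead2 fell with differentiation in menin-null cells, by 0.75 (adjusted p = 0.000297), and differed by -0.22 in wild-type cells (adjusted p = 0.111).

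Lats2, the Hippo kinase and itself a YAP-TEAD target, was read by 6 probe sets of its own. The brightest was at 7.71 and 7.78 in menin-null PILECs and 7.995 and 7.94 in wild-type PILECs, and at 7.53 and 7.52 in menin-null mESCs and 7.66 and 7.53 in wild-type mESCs. Menin-null PILECs were lower without overlap and did not pass (-0.22, SE 0.0845, unadjusted p = 0.0334, adjusted p = 0.171). It rose with differentiation in wild-type cells by 0.37 (adjusted p = 0.00495), a call lost without wild-type mESC replicate 2 (adjusted p = 0.0528) and over the mean of its probe sets (0.19, adjusted p = 0.0708). The rise of 0.22 in menin-null cells (adjusted p = 0.0463) was lost without any 1 of the 8 arrays (adjusted p 0.0657 to 0.153). The 5 other Lats2 probe sets were under 7 in every group and disagreed in direction, with differences such as 1.11 for 1437101_at and -0.38 for 1419679_at between menin-null PILECs and menin-null mESCs. A further probe set, which the annotation assigns to both Xpo4 and Lats2, was left out of the fit and ran the other way to the brightest one. It was at 8.16 and 7.89 in menin-null PILECs and 8.07 and 8.16 in wild-type PILECs, and at 10.40 and 10.64 in menin-null mESCs and 10.66 and 10.64 in wild-type mESCs. PILECs of both lines were thus below mESCs of both lines there, and which of the 2 genes this probe set reads was not tested.

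**Figure D3:**
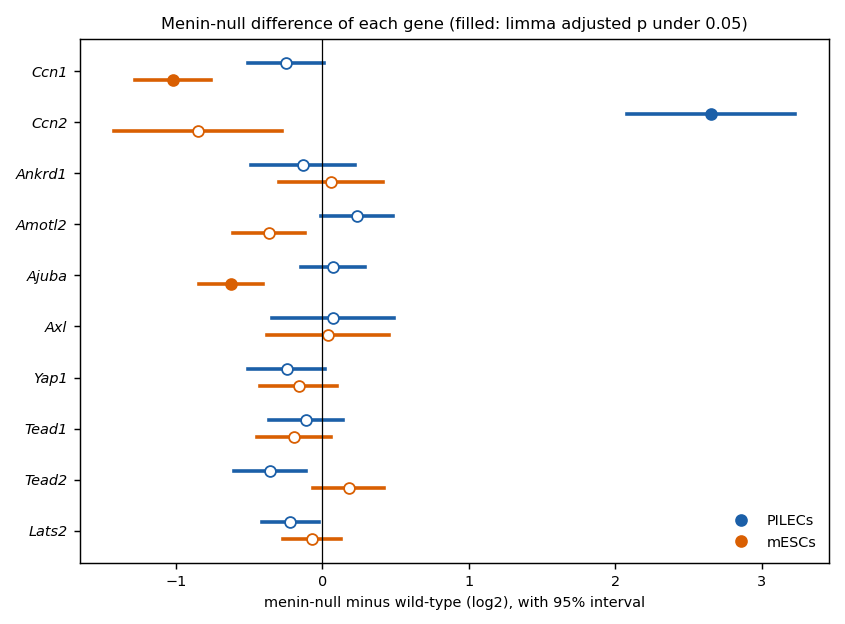
Difference between menin-null and wild-type cells (horizontal axis, log2) for each of the 10 genes (vertical axis), in PILECs (blue) and mESCs (orange), with 95% intervals from limma. Filled points have an adjusted p under 0.05. Ccn2 in PILECs, at 2.66, lies far to the right of all other points, and Ccn1 and Ajuba in mESCs are the filled points left of 0.

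Set side by side, 2 of the 10 genes changed in menin-null mESCs, Ccn1 and Ajuba, both lower, and 4 had an unadjusted p under 0.05. Over all genes 3.64% were called in this comparison (1.29% higher and 2.36% lower). The median difference was -0.18 for the 10 genes and 0.0073 for all genes. In PILECs Ccn2 alone changed, against 6.68% of all genes called (2.26% higher and 4.42% lower), and 3 of the 10 genes had an unadjusted p under 0.05. The share of all genes at an unadjusted p under 0.05 was not computed for either comparison, so such counts have no background here. There the medians were -0.12 for the 10 genes and -0.0054 for all genes. The interaction passed for 3 genes, Ccn1, Ccn2 and Ajuba, all positive, against 3.06% of all genes (1.50% positive and 1.57% negative). Since the 10 genes were chosen with earlier results of these data known, the shares over all genes give scale only and test nothing about the set.

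Over all 22 probe sets 3 were lower in menin-null mESCs, 2 of Ccn1 and that of Ajuba, against 2.20% of the 34945 probe sets called, and 1 was higher in menin-null PILECs, that of Ccn2, against 3.87%. For the interaction 2 passed, those of Ccn2 and of Ccn1 (1438133_a_at), against 1.60%. Counts of genes whose arrays did not overlap were larger. In mESCs, 6 of the 10 had both menin-null arrays below both wild-type arrays (24.9% of all genes) and 1 had both above (24.1%). In PILECs, 5 had both below (30.0%) and 2 had both above (24.7%). In PILECs Amotl2 was on the same side as Ccn2, and Ccn1, Ankrd1, Yap1, Tead2 and Lats2 were on the other.

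Most of the 10 genes changed with differentiation, as most genes did. Of the 10, 9 passed in menin-null cells, 3 higher and 6 lower, against 65.0% of all genes (28.9% higher and 36.1% lower). In wild-type cells 8 passed, 2 higher and 6 lower, against 63.1% (27.8% higher and 35.3% lower). By the brightest probe set of each gene, Axl and Lats2 rose in both lines, and Ccn1, Ankrd1, Ajuba, Yap1 and Tead1 fell in both. Ccn2, Amotl2 and Tead2 passed in 1 line only. The rise of Lats2 is uncertain, since its probe sets disagreed in direction, as given above. Both arrays of menin-null PILECs were above both of menin-null mESCs for 3 genes (35.4% of all genes) and below for 6 (43.6%), and in wild-type cells PILECs were above for 2 (36.4%) and below for 7 (47.2%). Over the 22 probe sets 15 passed in menin-null cells (62.7% of all probe sets) and 16 in wild-type cells (60.5%). For Ccn2, Amotl2 and Tead2 the difference between the lines in the change with differentiation is the interaction given above, which passed for Ccn2 and not for Amotl2 or Tead2. Over all genes the median change with differentiation was -0.073 in menin-null cells and -0.076 in wild-type cells, and -0.195 and -0.171 once each array was centred on its own median.

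The genes whose signals followed Ccn2 most closely over the 8 arrays were Gata4 (Pearson r = 0.982), Srgn (0.949), Lamc1 (0.945), Ctsh (0.942) and Gm13238 (0.901). They were taken from 6299 genes with a group mean of 7 or more whose group means spanned at least 1 log2 unit, and r is a description over 8 arrays of 2 lines. Gata4, an endoderm transcription factor, averaged 7.69 in menin-null PILECs and 6.35 in wild-type PILECs, and 7.36 in menin-null mESCs and 7.86 in wild-type mESCs. Lamc1, a laminin chain of basement membranes, averaged 10.97 in menin-null PILECs and 9.74 in wild-type PILECs, and 10.51 in menin-null mESCs and 10.71 in wild-type mESCs. As for Ccn2, wild-type PILECs were the lowest group for each of the 5 genes. This largely follows from choosing them by their correlation with Ccn2, and is no separate finding. Ccn1 was followed by other genes, namely Prrc1 (0.993), Wdr25 (0.989), Marveld1 (0.989), Gm364 (0.980) and Ldb3 (0.980). The first of them, Prrc1, averaged 9.16 in menin-null PILECs and 9.36 in wild-type PILECs, and 9.70 in menin-null mESCs and 10.86 in wild-type mESCs.

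**Figure D4:**
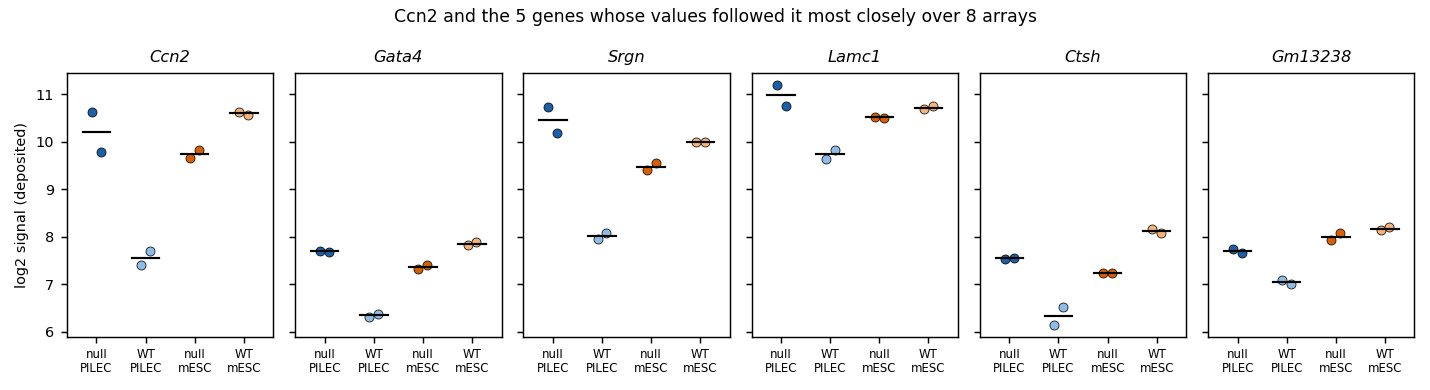
Deposited log2 signal (vertical axis) of Ccn2 and of the 5 genes with the highest Pearson correlation to it, in the 4 groups (horizontal axis). Points are single arrays and black lines means of 2 arrays. Wild-type PILECs are the lowest group in every panel, at a mean of 7.55 for Ccn2 and 6.35 for Gata4. The genes were chosen for following Ccn2, so this largely follows from the choice.

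Beside Ccn2, markers of parietal and visceral endoderm were higher in menin-null PILECs. Of the 16 measured, 11 rose and 0 fell in menin-null PILECs, against 2.26% of all genes called higher and 4.42% lower. The median difference was 0.91, against -0.0054 over all genes. The list was chosen with earlier results of these data known, and holds Gata4 and Srgn, named above for following Ccn2. The proteoglycan gene Srgn rose by 2.44 (adjusted p = 0.000532), the laminin gene Lama1 by 2.19 (adjusted p = 0.000319), Col4a2 by 1.78 (adjusted p = 0.00132), Col4a1 by 1.51 (adjusted p = 0.00243), the transcription factor genes Sox17 by 1.40 (adjusted p = 0.00230) and Gata4 by 1.34 (adjusted p = 0.000262). Their summed linear signal was 33414 to 44476 in menin-null PILECs and 17580 to 19711 in wild-type PILECs, and 12 to 13 of the 16 markers were at 7 or more in menin-null PILEC arrays, against 10 in wild-type PILEC arrays. Afp, a defining marker of visceral endoderm, was under 7 in both, at 6.15 and 5.49. The count that rose was 7 without wild-type PILEC replicate 1 and 9 to 13 without any other array but wild-type PILEC replicate 2, where it was 8. In mESCs, where Ccn2 ran lower, the same list ran lower, with a median of -0.47, against 0.0073 over all genes. By limma 13 markers had an unadjusted p under 0.05, a count for which no share of all genes was computed. The summed signal was 8881 to 9323 in menin-null cells against 13189 to 13270 in wild-type cells. Of the 16 markers 3 fell, Amn, Gata4 and Sparc, against 2.36% of all genes called lower. That count was 1 without menin-null mESC replicate 1, 0 without either array of wild-type mESCs or wild-type PILECs and 6 without either menin-null PILEC array. The part of such cells in the level of Ccn2 was not tested.

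Fibroblast markers, which include the feeder type, did not run with Ccn2. Of 14 measured, 1 rose and 3 fell in menin-null PILECs, against 2.26% of all genes called higher and 4.42% lower. Thy1 rose (1.01, adjusted p = 0.00141) and Lum, Col1a2 and Twist1 fell (-1.07, -0.78 and -0.34, adjusted p 0.0449 to 0.0477). All 3 falls were lost without any 1 of the 4 wild-type arrays or menin-null PILEC replicate 2, and 1 was left without menin-null PILEC replicate 1. The summed signal was 31230 to 40098 in menin-null PILECs and 38075 to 43167 in wild-type PILECs. In mESCs it was 6043 to 6190 in menin-null cells and 6251 to 6313 in wild-type cells, with Thy1 higher (0.39, adjusted p = 0.0463). That call on Thy1 was lost without any 1 of the 8 arrays.

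Of 10 smooth muscle genes and targets of SRF measured, 2 fell in menin-null mESCs, against 3.64% of all genes called. Tagln (-1.03, adjusted p = 0.0144) and Myl9 (-0.98, adjusted p = 0.0122), which encode parts of the contractile actin system, passed, and 5 had an unadjusted p under 0.05. The median was -0.27 and the summed signal 9663 to 10187 in menin-null mESCs, against 12346 to 12981 in wild-type mESCs. Both falls were lost without either wild-type mESC array and with only the mESC arrays in the fit. In PILECs Vcl fell (-0.39, adjusted p = 0.0498), a call lost without any 1 of the 4 wild-type arrays or menin-null PILEC replicate 2. Whether Ccn1 shares a cause with these genes was not tested.

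Stem cell markers were lower in menin-null PILECs, where Ccn2 was higher. None of the 8 stem cell markers changed in menin-null mESCs by limma, with 1 at an unadjusted p under 0.05. In menin-null PILECs 5 of them fell, against 4.42% of all genes called lower. The 5 were Dppa5a (-0.999), Zfp42 (-0.98), Nanog (-0.93), Pou5f1 (-0.81) and Tdgf1 (-0.74), with adjusted p 0.00238 to 0.0203. The count was 3 without either menin-null PILEC replicate 1 or wild-type PILEC replicate 1. Among 7 endothelial markers Tek fell in menin-null mESCs (-0.77, adjusted p = 0.0318), and 0 passed there without menin-null mESC replicate 1, either wild-type mESC array or either menin-null PILEC array. In PILECs 0 endothelial markers passed by limma and 1 had an unadjusted p under 0.05. Among the 9 islet markers 0 passed in either comparison, with 1 at an unadjusted p under 0.05 in mESCs and 4 in PILECs. Over all genes 3.64% were called in mESCs and 6.68% in PILECs. Counts of 0 or 1 in lists this short therefore say little about these cell types.

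Upstream of YAP, of 21 kinases, adaptors and junction proteins of the Hippo cascade measured, 1 fell in menin-null mESCs, Ptpn14, a phosphatase that binds YAP (-0.64, adjusted p = 0.0186), and 5 had an unadjusted p under 0.05. The list's median was -0.0045, and 3.64% of all genes were called. In menin-null PILECs 2 fell, against 6.68% of all genes called. They were the protocadherin gene Fat4 (-0.87, adjusted p = 0.00646) and Stk4, which encodes the kinase MST1 (-0.38, adjusted p = 0.0487). The list's median there was -0.12, and 6 had an unadjusted p under 0.05. Fat4 averaged 8.95 in menin-null PILECs and 9.82 in wild-type PILECs, and was under 7 in mESCs. The mESC count was 0 without menin-null mESC replicate 1 and without any 1 of the 4 wild-type arrays, and the PILEC count was 0 without wild-type PILEC replicate 2 and 1 without any other PILEC array or either wild-type mESC array.

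Of 8 partners of YAP and TEAD measured, 0 passed in menin-null mESCs by limma and 1 had an unadjusted p under 0.05. In menin-null PILECs 1 passed. Over all genes 3.64% were called in mESCs and 6.68% in PILECs, so such counts in a list this short say little. In menin-null PILECs Vgll3, a TEAD cofactor, was called lower (-0.85, adjusted p = 0.0406), with means under 7 in every group, and the call was lost without any 1 of the PILEC or wild-type mESC arrays. Wwtr1, which encodes the YAP paralogue TAZ, averaged 9.54 in menin-null PILECs and 9.98 in wild-type PILECs (-0.43, adjusted p = 0.0794), and 9.43 in menin-null mESCs and 9.17 in wild-type mESCs.

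The other CCN genes did not run with Ccn2 in PILECs as a family. Ccn3, whose protein is known to oppose Ccn2 in some matrix settings, averaged 6.18 in menin-null PILECs and 7.68 in wild-type PILECs, a fall of 1.50 (adjusted p = 0.00456). Its sign was the opposite of that of Ccn2. Ccn5 was called higher (0.42, adjusted p = 0.0496) with means under 7, a call lost without any 1 of the PILEC or wild-type mESC arrays. Ccn4 was at 8.89 in menin-null PILECs and 8.50 in wild-type PILECs (0.39, adjusted p = 0.447), and Ccn6 was under 7 in all groups. None of the 4 passed or had an unadjusted p under 0.05 in menin-null mESCs. Over all genes 3.64% were called there and 6.68% in menin-null PILECs.

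The median difference of 20 other genes known as YAP-TEAD targets was -0.047 in menin-null mESCs. Of these genes 0 rose and 3 fell, against 1.29% of all genes called higher and 2.36% lower. The 3 were the matrix protein gene Thbs1 (-0.95, adjusted p = 0.0215), F3, which encodes tissue factor (-0.86, adjusted p = 0.0122), and the endothelin gene Edn1 (-0.65, adjusted p = 0.0115). All 3 calls were lost without either wild-type mESC array. In menin-null PILECs 2 rose and 4 fell, with a median of -0.11, against 2.26% of all genes called higher and 4.42% lower. F3 rose by 0.86 (adjusted p = 0.00913) and Edn1 by 0.38 (adjusted p = 0.0460), which is the pattern of signs of Ccn2, and their interactions passed at 1.72 for F3 (adjusted p = 0.00527) and 1.02 for Edn1 (adjusted p = 0.0119). The interaction of F3 passed without any 1 of the 8 arrays (adjusted p up to 0.0482), and that of Edn1 was lost without either wild-type mESC array or wild-type PILEC replicate 1 (adjusted p up to 0.0663). Birc5 (-0.55), Gadd45a (-0.51) and Gli2 (-0.50), which act in cell division, growth arrest and hedgehog signalling, were among those that fell, with adjusted p 0.0154 to 0.0242. Without either wild-type PILEC array 0 of the 20 passed in PILECs, 1 without menin-null PILEC replicate 1, 4 without menin-null PILEC replicate 2 and 3 without either wild-type mESC array.

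**Figure D5:**
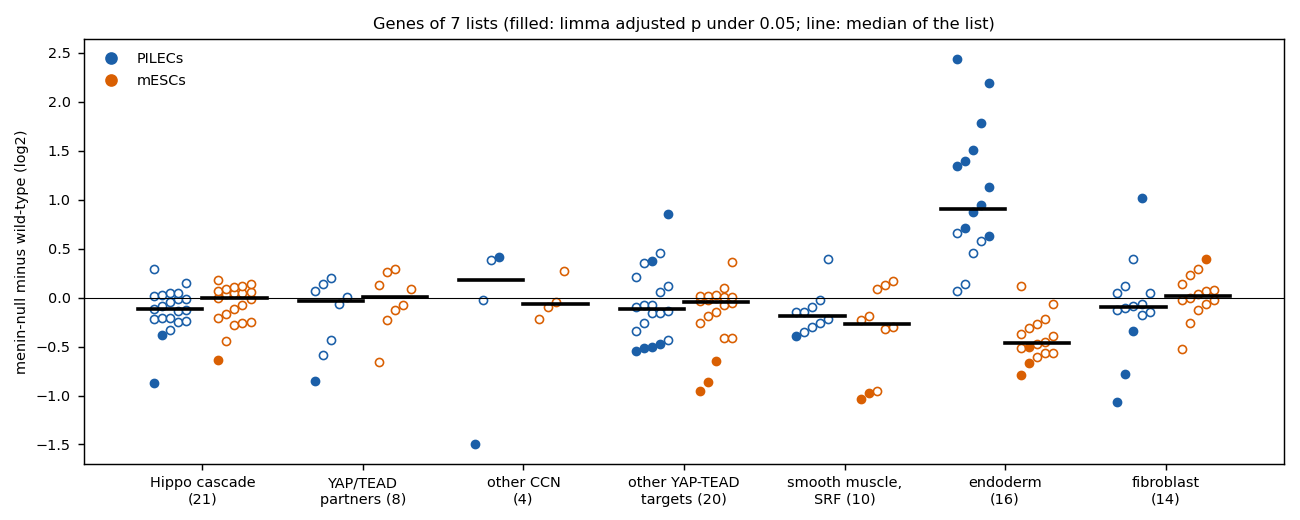
Difference between menin-null and wild-type cells (vertical axis, log2) for each measured gene of 7 lists (horizontal axis, number of genes in brackets), in PILECs (blue) and mESCs (orange). Filled points have an adjusted p under 0.05 by limma and lines are list medians. Endoderm markers lie mostly above 0 in PILECs (median 0.91) and below 0 in mESCs (median -0.47), while the Hippo cascade has medians of -0.12 in PILECs and -0.0045 in mESCs.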

How the data were processed

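Total RNA of 8 cultures was hybridised as biotin-labelled cRNA to Affymetrix Mouse Genome 430 2.0 arrays. The values used were the deposited log2 signals, 1 per probe set and array, as the authors made them. RMA and Partek appear, without versions, in the submitters' processing notes, the methods name Microarray Analysis Suite 5.0, and which of them made the values is unknown. For the array annotation no build is named in these sources, and the promoter table is of GRCm38.p6. The number of arrays limits the precision.

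Of 45101 probe sets, 64 controls, 9160 without a symbol and 932 with several were left out, and the brightest probe set by mean stood for each of 18193 genes. Means of the 4 groups were fitted with limma 3.58.1 (R 4.3.3, version 1.17.8 of data.table) and eBayes (4 residual and 3.72 prior degrees of freedom), and p-values were adjusted over all genes. With 2 arrays against 2 an exact permutation test cannot go below 0.333. The spread behind each p is that between cultures of a single line. Plots used matplotlib 3.10.9 (Python 3.11.15).

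The members and the 10 gene lists were chosen with earlier results of these data known. Text names every member, Men1, up to 6 genes of a list by the size of their menin-null difference among those that passed, and the 5 genes most correlated with Ccn1 and with Ccn2. Wwtr1, Ccn4, Ccn6, Afp, Amn, Sparc and the islet markers were named after their values were seen. Stk3, Runx2, Fbn1 and Ins1 are not analysed here. The fit was tested on simulated data. Alternatives were other normalizations, a filter on dim genes, other probe set choices, another variance model, a fit on the compared arrays alone, a replicate block and leaving out each array.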

Additional observations from a re-analysis of the deposited data

Results flagged for a closer look

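The menin-null effect differed between PILECs and mESCs, by limma's test of the interaction, for 3 of the 10 genes and 16 of the list genes named above. Over all genes 3.06% passed. The list genes tested here had been named for passing in 1 or both menin-null comparisons. A large effect in 1 cell type favours a pass here, so the count of 16 is partly fixed by that choice and is no separate finding. Each value is the effect in PILECs minus the effect in mESCs on the log2 scale. The differences were 3.50 for Ccn2, 0.77 for Ccn1 and 0.70 for Ajuba. Of the endoderm markers, they were 2.95 for Srgn, 2.80 for Lama1, 2.35 for Col4a2, 1.99 for Col4a1, 1.84 for Gata4 and 1.70 for Sox17. Of other YAP-TEAD targets, they were 1.72 for F3 and 1.02 for Edn1. Of the Hippo cascade, they were -0.86 for Fat4 and 0.69 for Ptpn14, and of the CCN family, -1.28 for Ccn3. Stem cell markers gave -1.05 for Zfp42, -1.04 for Dppa5a and -1.01 for Nanog, and fibroblast markers 0.62 for Thy1 and -0.57 for Twist1. Adjusted p ranged between 0.000864 for Gata4 and 0.0476 for Ptpn14. With 1 array left out, the differences of Ccn2, Srgn, Lama1, Col4a2, Col4a1, Gata4, Sox17 and F3 passed for each of the 8 arrays, Edn1, Zfp42 and Dppa5a for 5, Nanog for 3, Ccn3 for 2, Ajuba, Fat4, Ptpn14 and Thy1 for 1, and Ccn1 and Twist1 for 0 (adjusted p up to 0.181). Of the 16 list genes, 8 passed without wild-type PILEC replicate 1, 7 without either of the wild-type mESC arrays and 10 to 15 without any other. With a replicate block 11 of the 16 passed, and Ccn3, Fat4, Ptpn14, Thy1 and Twist1 were lost.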

How the results depend on the processing

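The rise of Ccn2 in menin-null PILECs passed under all 17 alternatives (2.23 to 3.09, adjusted p 4.25e-06 to 0.0343), and its interaction under all 16 that could be run (3.07 to 3.93, adjusted p up to 0.0482). Of the 10 genes, the number that changed in menin-null mESCs was 0 with only the arrays compared, 4 with an intensity trend and robust moderation, and 0 to 3 with 1 array left out. In menin-null PILECs it was 2 with the trend and 1 with any array left out. It was 8 to 9 for differentiation of menin-null cells and 7 to 9 for wild-type cells with 1 array left out, and for the interaction 5 with the trend and 1 to 2 with 1 array left out. With probe sets of suffix s, x or a left out, 8 of the 10 genes were measured, and 0 passed in mESCs, 5 in differentiation of menin-null cells and 1 in the interaction. Ccn1 then turned round, to 0.0085 in mESCs, -0.22 in the interaction, 0.16 in differentiation of menin-null cells and 0.38 in that of wild-type cells (adjusted p 0.117 to 0.988), since another, dim probe set stood for it. The labels give no shared batch for a replicate number. Differences between replicates 1 and 2 correlated across genes at 0.209 between the menin-null groups and 0.0641 between the wild-type groups. Between groups of different lines r was negative throughout, at -0.277 to -0.0623. Whether cultures were paired was not tested. With a replicate block 2, 1, 8 and 8 genes passed in mESCs, PILECs, menin-null and wild-type differentiation, and 1 in the interaction, where Ccn1 (adjusted p = 0.0867) and Ajuba (adjusted p = 0.0761) were lost. With crossed numbers (menin-null replicate 1 with wild-type replicate 2), tried after seeing the data, the counts were 2, 1, 9, 8 and 4. Quantile normalization moved the split of all genes called in menin-null PILECs to 607 higher and 771 lower, against 412 and 804. Beyond this split, the share of all genes called under each alternative is not given here. A change in the counts of the 10 genes therefore cannot be told from a general change in the number of calls.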
